A study of Mus musculus with 6 samples.

Results

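Wells whose hormone transcripts were those of a somatostatin-producing delta cell, with little transcript of pancreatic polypeptide, were taken from a plate-based single-cell RNA sequencing study of mouse islets of Langerhans. They were chosen by the counts themselves. A well was kept when it held at least 500 unique molecular identifiers (UMIs, each marking 1 captured transcript), at most 20% of them from mitochondrially encoded genes. A kept well was called somatostatin-only when Sst made up at least 0.73% of its UMIs, Ins1 and Ins2 together under 3.3%, Gcg under 2.3% and Ppy under 3%. The rule was met by 295 of 2115 kept wells (13.9%). Held against them were 992 insulin-only wells and 130 glucagon-only wells, all with Ppy under 3%, and 245 somatostatin wells that met the rule except that Ppy was 3% or more.

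The mice were male, and their islets were taken 4 weeks after surgery, which was either ppx (a partial pancreatectomy, the removal of some of the pancreas) or a sham operation. Mice of both operations carried Sox9-CreER and tdTomato: tamoxifen then marks cells in which the promoter of Sox9 (a gene active in duct and progenitor cells) is on, together with their descendants. All had tamoxifen (8 mg) beginning at the age of 10 weeks and surgery at 12 weeks. For each operation, single cells were sorted into 3 plates with 384 wells apiece. The cells of ppx replicate 1 and sham replicate 1 were sorted as tomato-positive, those of ppx replicates 2 and 3 and sham replicate 3 as tomato-negative, and those of sham replicate 2 were mixed. The series states 2300 cells from 6 pancreata, beside 2304 wells in the files, and the labels do not tie a plate to a mouse, so p-values measure the spread between plates, which may be technical.

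Delta cells are a minor endocrine cell type of the islet. Somatostatin, the peptide they secrete, acts on neighbouring cells through inhibitory receptors and restrains the release of insulin and glucagon. Delta cells receive signals in turn: ghrelin acts on them through the receptor encoded by Ghsr, and urocortin 3, secreted by beta cells, through that encoded by Crhr2.

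Transcription of Sst is a classic case of control by cyclic AMP, through an 8-base element bound by CREB. The 250 bases before the Sst start site are shown because Sst is the gene that defines these wells. They were taken from RefSeq (GRCm38.p6, chr16:23890845-23891094, minus strand, upstream of the gene), with the element TGACGTCA in capitals.

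Sst: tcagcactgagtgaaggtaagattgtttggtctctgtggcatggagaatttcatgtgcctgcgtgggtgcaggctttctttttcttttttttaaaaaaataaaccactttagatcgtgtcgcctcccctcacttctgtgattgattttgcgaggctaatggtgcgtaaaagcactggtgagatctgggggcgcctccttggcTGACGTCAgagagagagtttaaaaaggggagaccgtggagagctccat

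The element begins 48 bases before the start site. The same 8 letters, which read alike on both strands, stood in 508 of 32851 promoter windows of this length (1.55%). Of the 6 delta genes with a promoter entry, Sst alone held them.

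The plates held 1250861 to 1508513 UMIs each, and the members 540 to 5784 UMIs per well, with a median of 1539. By plate there were 114, 2 and 6 of them on ppx replicates 1, 2 and 3, and 127, 30 and 16 on sham replicates 1, 2 and 3. The tomato-positive plates supplied 241 of the 295. The hormone levels that follow chose the wells and are given as a description.

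Sst took a median of 8.67%, 18.7% and 18.9% of a member's UMIs on ppx replicates 1, 2 and 3, and of 8.00%, 13.6% and 19.5% on sham replicates 1, 2 and 3. The tomato-positive plate of each operation was thus the lowest. Over all members Sst ranged between 0.902% and 29.2%. Few wells lay near the threshold for Sst: among 407 wells low in the other 3 hormones, none fell within 1.5-fold below it and 2 within 1.5-fold above it. The 10 wells nearest below held 0.249% to 0.475% and the 10 nearest above 0.902% to 4.28%.

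The limit on Ppy, in contrast, cut through a continuum. Of 540 somatostatin wells low in insulin and glucagon transcripts, 76 lay within 1.5-fold below 3% and 98 within 1.5-fold above. The 10 nearest on each side held 2.85% to 2.99% and 3.04% to 3.22%. Ppy was at 0 in 1 member of 295. Its median was 1.35%, 0.770% and 0.161% on ppx replicates 1, 2 and 3, and 1.26%, 1.1% and 0.744% on sham replicates 1, 2 and 3. Insulin-only wells had medians of 0.171%, 0.143% and 0.0674% on the ppx plates and 0.136%, 0.0787% and 0.0863% on the sham plates. The members lay above them on 6 of 6 plates, at a smaller median depth than those wells had. Glucagon-only wells had medians of 0.228%, 0.185% and 1.94% on the ppx plates and 0.212%, 0.0867% and 0.119% on the sham plates. On ppx replicate 3 the 4 glucagon-only wells thus lay above the members. The part of depth in these values was not tested.

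**Figure D1:**
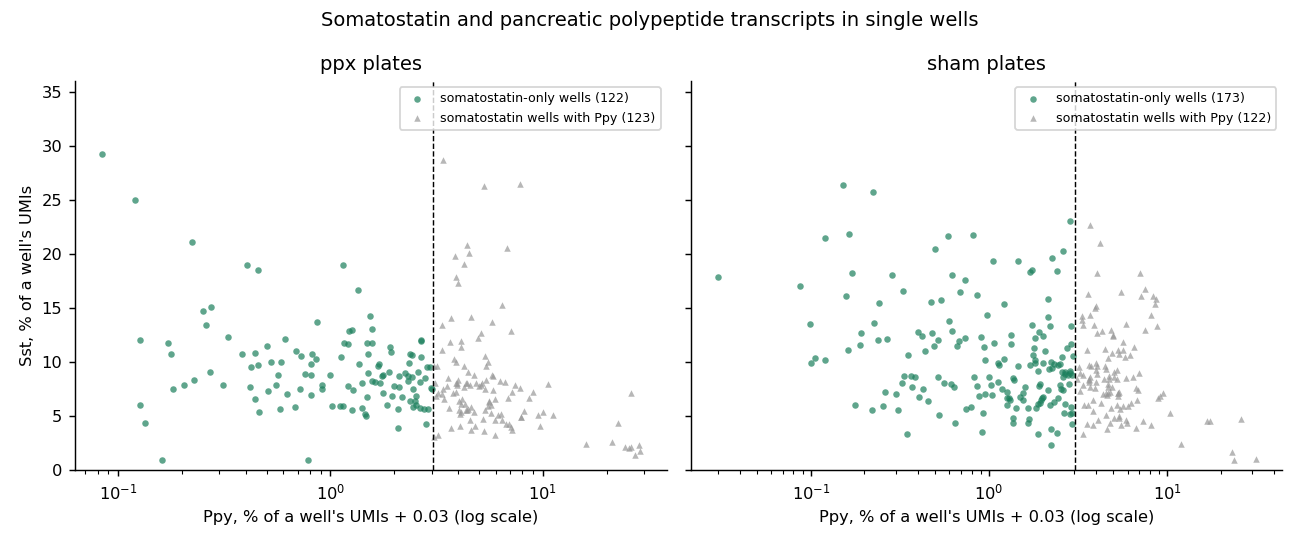
Each point is a well, by the share of its UMIs from Ppy (x axis, in percent with 0.03 added, log scale) and from Sst (y axis, percent), on ppx plates (left) and sham plates (right). Green points are the somatostatin-only wells, 122 on ppx and 173 on sham plates, grey triangles are somatostatin wells with Ppy of 3% or more, 123 and 122, and the dashed line is the limit of 3%, which runs through a continuous cloud.

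Insulin and glucagon transcripts were low in the members. Insulin transcripts had a median of 0.729%, 0.341% and 0.283% on ppx replicates 1, 2 and 3, and of 0.408%, 0.575% and 0.684% on sham replicates 1, 2 and 3. Glucagon-only wells, which should lack insulin transcripts, had medians of 0.194%, 0.257% and 0.135% on ppx plates and 0.214%, 0.391% and 0.584% on sham plates. The members lay above the glucagon-only wells of the same plate on all 6 plates, at a smaller median depth than those wells had. Gcg had medians between 0% and 0.364% in the members and between 0.0313% and 0.319% in insulin-only wells, which overlap.

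Members made up 32.0%, 0.552% and 1.71% of the kept wells on ppx replicates 1, 2 and 3, and 35.8%, 8.50% and 4.72% on sham replicates 1, 2 and 3. The exact 95% binomial intervals, which cover counting error only, were 27.2% to 37.1%, 0.0670% to 1.98% and 0.632% to 3.69% on the ppx plates, and 30.8% to 41.0%, 5.81% to 11.9% and 2.72% to 7.55% on the sham plates. The 2 tomato-positive plates were far above the other 4. The mean was 11.4% ± 17.8 on ppx plates and 16.3% ± 16.9 on sham plates (SD, n = 3 each), a difference of -4.90 points (exact two-sided permutation p = 0.5, where 0.1 is the smallest possible). Within the tomato-positive plates the difference was -3.75 points, and within the tomato-negative plates -3.59 points, with too few plates in either for a test. Without sham replicate 1 the pooled difference was 4.82 points and without ppx replicate 2 it was 0.537 points, so 1 plate decided its sign.

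Among all wells with Sst at or above its threshold, which include wells that also carried insulin, glucagon or Ppy transcripts, members were 36.8%, 11.1% and 31.6% on ppx replicates 1, 2 and 3, and 42.1%, 28.8% and 55.2% on sham replicates 1, 2 and 3. The difference of -15.5 points lay within the spread of the plates (exact two-sided permutation p = 0.3, smallest possible 0.1). It was -5.28 points within tomato-positive and -33.8 points within tomato-negative plates.

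Members yielded fewer UMIs than the insulin-only and glucagon-only wells of their plates. On the 5 plates with at least 5 wells of both classes, the median was 1616 and 1838 UMIs in members of ppx replicates 1 and 3 and 1458, 1532 and 1891 in those of the sham plates. Insulin-only wells had 4750 and 3992 on the ppx plates and 5380, 4483 and 4815 on the sham plates. Members had 0.356 times the UMIs of insulin-only wells (log2 ratio -1.49 ± 0.283 SD, lower on 5 of 5 plates, exact two-sided sign-flip p = 0.0625, the smallest that 5 plates allow). Glucagon-only wells of sham replicates 1, 2 and 3 had 3701, 3388 and 2867, and members had 0.490 times as many (log2 ratio -1.03 ± 0.385 SD, lower on 3 of 3 plates, exact p = 0.25, the smallest possible). Somatostatin wells with Ppy were shallow as well. Their medians were 1573.5 and 2430.5 UMIs on ppx replicates 1 and 3, and 1529 and 1741 on sham replicates 1 and 2. When wells were thinned to 500 UMIs outside the hormone genes, the median number of genes in members differed by -1.5 from that in insulin-only wells of the same plate (SD 12.9, 5 plates, exact p = 0.875) and by -10.7 from that in glucagon-only wells (SD 2.52, 3 plates, exact p = 0.25, the smallest possible).

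Genes were then compared on the summed UMIs of each class per plate, where at least 5 of its wells were kept, leaving out Sst, Ins1, Ins2, Gcg and Ppy. Levels are given as CPM, the UMIs of a gene per 1000000 of the remaining UMIs. Somatostatin-only wells entered from 5 plates (ppx replicates 1 and 3 and sham replicates 1 to 3), insulin-only wells from all 6 and glucagon-only wells from 4 (ppx replicate 2 and sham replicates 1 to 3). Both comparisons use the same somatostatin-only wells, so their values are set side by side and are not independent. Of 3072 genes tested, 343 were higher (11.2%) and 428 lower (13.9%) than in insulin-only wells at an adjusted p under 0.05 (edgeR quasi-likelihood test with plate as a block). Together these 771 genes were 25.1% of those tested. Against glucagon-only wells 202 were higher (6.58%) and 237 lower (7.71%), in all 439 genes (14.3%). The median log2 fold change over all tested genes was -0.07 and -0.01.

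Because members were the shallower wells, the fits were repeated at equal depth. Wells were thinned to 1000 UMIs outside the hormone genes, and shallower wells were left out: 63 of 295 somatostatin-only, 23 of 992 insulin-only and 3 of 130 glucagon-only wells. In the rest, 735 genes could be tested. Of the 340 of these called against insulin-only wells at full depth, 270 were called in the same direction and 340 kept their sign. Of the 221 called against glucagon-only wells, 156 were called and 221 kept their sign. At 500 UMIs, which left out 3 somatostatin-only wells, 143 of 201 and 87 of 154 were called in the same direction.

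The label of these wells was checked with delta cell markers beyond Sst. The first 8, from Hhex to Efnb3, were named for these wells with the data in view, so their values are a description with no test. Each of the 8 was higher on every plate with both classes (5 plates against insulin-only and 3 against glucagon-only wells). Hhex, a homeobox factor needed to maintain delta cells, had 452 and 1013 CPM on ppx replicates 1 and 3 and 541, 369 and 437 CPM on the sham plates in somatostatin-only wells, against 0 to 67.4 CPM in insulin-only wells and 0 UMIs in glucagon-only wells. Wells with Ppy, described further on, had 306 to 494 CPM. The log2 fold change was 6.29 ± 0.39 (SE) over insulin-only wells, and Hhex was at least 51.9-fold higher than the 3-count floor over the 4 glucagon-only sums.

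Rbp4, which encodes the plasma carrier of retinol, had 5042 and 4278 CPM on the ppx plates and 5398, 7463 and 6201 CPM on the sham plates in somatostatin-only wells. In insulin-only wells it had 674, 13 and 7.65 CPM on ppx plates and 479, 58.6 and 31.2 CPM on sham plates, and in glucagon-only wells 661 CPM on ppx replicate 2 and 1263, 932 and 1188 CPM on sham plates. Every plate of somatostatin-only wells lay above both other classes, with log2 fold changes of 5.90 ± 0.16 and 2.25 ± 0.17. The insulin-only wells with most Rbp4 were those of the tomato-positive plates, where somatostatin-only wells were most frequent. Whether transcripts passed between wells or cells there was not tested.

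The surface protein Cd24a had 1563 and 901 CPM on ppx plates and 1328, 1232 and 2052 CPM on sham plates in somatostatin-only wells, against 19.0 to 121 CPM in insulin-only and 0 to 99.1 CPM in glucagon-only wells. Its log2 fold changes were 5.33 ± 0.21 and 5.64 ± 0.34. The groups did not overlap. Arg1, an arginase, was higher by 5.20 ± 0.33 and 2.33 ± 0.35 on the log2 scale, and Fam159b, a small membrane protein gene, by 3.44 ± 0.20 and 5.52 ± 0.38.

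Gap43, a growth cone protein of neurons, averaged 367 ± 155 CPM in somatostatin-only wells (SD, n = 5), against 3.89 ± 8.11 CPM in insulin-only wells (n = 6) and 0 UMIs in glucagon-only wells, at least 28.1-fold lower there. Dpp6, an auxiliary subunit of A-type potassium channels, averaged 242 ± 42.9 CPM against 11.3 ± 16.2 and 20.5 ± 21.9 CPM, and Efnb3, an ephrin ligand, 282 ± 96.3 CPM against 6.97 ± 16.4 and 2.01 ± 4.01 CPM. The other 2 tested markers came from general knowledge of delta cells. The ghrelin receptor gene Ghsr had 116 and 0 CPM on ppx plates and 145, 98.5 and 43.7 CPM on sham plates in somatostatin-only wells, against 0 to 10.2 CPM in insulin-only wells and 0 UMIs in glucagon-only wells. It passed against insulin-only wells (5.30 ± 0.80, adjusted p = 7.0e-10) and was at least 12.7-fold higher than in glucagon-only wells. Ptprz1, a receptor tyrosine phosphatase, passed as well (5.61 ± 0.92, adjusted p = 1.8e-08), a call that was lost on the tomato-positive plates alone (2.38, adjusted p = 0.0928). Lepr, the leptin receptor gene, had no UMI in members.

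**Figure D2:**
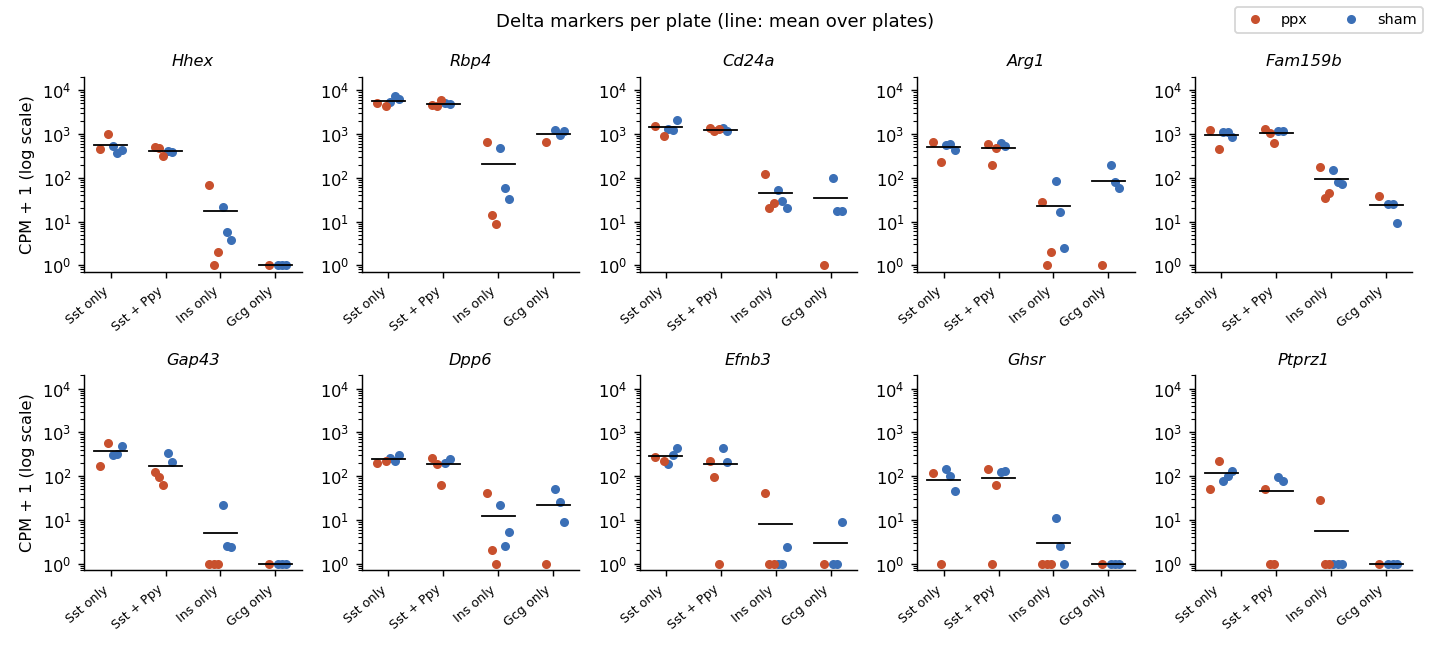
Levels of 10 delta cell markers (y axis, CPM plus 1, log scale) in somatostatin-only, Ppy-carrying somatostatin, insulin-only and glucagon-only wells, 1 point per plate with ppx in red left of sham in blue and a line at the mean. Hhex lay between 369 and 1013 CPM in somatostatin-only wells and at or below 67.4 CPM in insulin-only and glucagon-only wells; points at the bottom of a panel are plates with no UMI.

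Single wells showed the same order. Counted per well after thinning to 500 UMIs outside the hormone genes, 8 of these markers together gave a mean of 2.52 ± 0.123 markers in a somatostatin-only well (SD over 5 plates), against 0.152 ± 0.155 in an insulin-only well (6 plates) and 0.508 ± 0.226 in a glucagon-only well (4 plates). At least 3 markers were seen in 48.0% ± 4.37 of somatostatin-only wells and in no insulin-only or glucagon-only well. Wells with Ppy held 2.51 ± 0.216 markers, with at least 3 in 52.5% ± 8.81 of them (5 plates). At least 1 was seen in 95% ± 6.74 of somatostatin-only wells and in 98.3% ± 1.98 of wells with Ppy. It was seen in 13.4% ± 12.1 of insulin-only and 49.2% ± 22.8 of glucagon-only wells.

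Markers of beta cells were lower than in insulin-only wells, and those of alpha cells lower than in glucagon-only wells. The 10 beta cell markers outside the hormones summed to 20307 to 31634 CPM in somatostatin-only wells, against 88906 to 99798 CPM in insulin-only wells, and 9 of 9 tested were lower. Glucagon-only wells had 3939 to 5359 CPM of these 10. Most of the sum in members was Iapp, described with the hormones further on. The 9 alpha cell markers summed to 2607 to 5629 CPM, against 35699 to 53329 CPM in glucagon-only wells, and 8 of 8 tested were lower. The alpha cell factor gene Irx1 had no UMI in members. Markers of pancreatic polypeptide (gamma) cells were high: the 4 outside Ppy, Pyy among them, summed to 28298 to 38547 CPM. Insulin-only wells had 353 to 2223 CPM and glucagon-only wells 6525 to 15048 CPM. The 2 tested, Pyy and Tspan8, were called higher in both comparisons.

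Among 21 tested transcription factors of endocrine cells, 6 were higher and 4 lower than in insulin-only wells (median log2 fold change 0.11), and 4 were higher and 4 lower than in glucagon-only wells (median 0.29). Apart from Hhex, Etv1 was higher than in insulin-only wells. It had 269 and 225 CPM on ppx plates and 385, 493 and 480 CPM on sham plates in somatostatin-only wells, against 40.4 to 71.3 CPM in insulin-only wells. The log2 fold change was 2.74 ± 0.26 (adjusted p = 2.3e-23), while glucagon-only wells, at 257 to 570 CPM, overlapped (-0.49 ± 0.25, adjusted p = 0.22). Fev, Isl1, Meis2 and Rfx6 were also higher than in insulin-only wells, by 3.78 ± 0.64, 1.05 ± 0.24, 1.00 ± 0.25 and 1.26 ± 0.37 on the log2 scale.

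Factors of the other islet cells divided along class lines. Mafa, which drives the insulin genes in mature beta cells, had 30.5 and 0 CPM on ppx plates and 16.7, 0 and 43.7 CPM on sham plates in somatostatin-only wells, against 930 to 1194 CPM in insulin-only wells (log2 fold change -5.53 ± 0.31, adjusted p = 3.6e-68). Nkx6-1, another beta cell factor, averaged 57.0 ± 35.7 CPM against 760 ± 112 CPM (-3.56 ± 0.27). Pdx1, a factor of both beta and delta cells, had 147 and 113 CPM on ppx plates and 94.9, 98.5 and 87.3 CPM on sham plates in somatostatin-only wells, 121 to 220 CPM in insulin-only wells (-0.62 ± 0.32, adjusted p = 0.14), and 0 to 24.8 CPM in glucagon-only wells (2.93 ± 0.62, adjusted p = 5.5e-05).

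The alpha cell factor Irx2 was lower than in glucagon-only wells, with 1 UMI in members against 89 (-6.00 ± 0.93, adjusted p = 5.0e-09). Neurod1 and Insm1, general factors of endocrine differentiation, were lower than in insulin-only wells (-0.87 ± 0.25 and -0.70 ± 0.20).

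Of 5 other peptide hormone genes tested, 1 was higher and 3 lower than in insulin-only wells, and 3 were higher and none lower than in glucagon-only wells. Pyy, which encodes peptide YY, had 30234 and 34560 CPM on ppx plates and 29801, 38227 and 27949 CPM on sham plates in somatostatin-only wells. Insulin-only wells had 319 to 2196 CPM and glucagon-only wells 6436 to 14828 CPM, so the 3 classes did not overlap. The log2 fold changes were 5.25 ± 0.15 (adjusted p = 6.4e-259) and 1.43 ± 0.16 (adjusted p = 5.6e-18). Iapp, which encodes amylin, the peptide co-secreted with insulin, was intermediate: 20248 and 30845 CPM on ppx plates and 20011, 21232 and 21136 CPM on sham plates, against 76812 to 86699 CPM in insulin-only wells (-2.04 ± 0.14, adjusted p = 3.7e-48) and 2683 to 3744 CPM in glucagon-only wells (2.86 ± 0.17, adjusted p = 6.6e-61).

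Ucn3, the urocortin 3 gene of beta cells, averaged 18.9 ± 17.8 CPM in somatostatin-only wells, against 1005 ± 188 CPM in insulin-only wells (-4.82 ± 0.29, adjusted p = 2.8e-58). Prodynorphin (Pdyn) was higher than in glucagon-only wells by 3.64 ± 0.67. It was lower than in insulin-only wells (-0.999 ± 0.30). That call was lost in 5 of 16 alternative fits, among them without sham replicate 1 (-0.51) or sham replicate 2 (-0.79). Ghrl, the ghrelin gene, was seen only on the tomato-positive plates: 525 CPM on ppx replicate 1 and 184 CPM on sham replicate 1 in somatostatin-only wells, beside 512 and 122 CPM in insulin-only wells of the same plates.

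Of 13 tested genes of prohormone processing and secretory granules, 2 were higher and 6 lower than in insulin-only wells (median -0.41), and 3 were higher and 8 lower than in glucagon-only wells (median -0.70). Pcsk1, a prohormone convertase that cleaves proinsulin, had 244 and 0 CPM on ppx plates and 190, 197 and 175 CPM on sham plates in somatostatin-only wells. It had 642 to 883 CPM in insulin-only wells (-1.95 ± 0.21, adjusted p = 1.7e-19) and 0 to 73.4 CPM in glucagon-only wells (3.26 ± 0.48, adjusted p = 8.5e-10). Its partner Pcsk2, which in alpha cells makes glucagon, had 4432 and 2927 CPM on ppx plates and 4119, 4163 and 4411 CPM on sham plates. Insulin-only wells had 3961 to 4582 CPM, an overlap (-0.28 ± 0.13, adjusted p = 0.10), and glucagon-only wells 7561 to 10057 CPM (-1.24 ± 0.15, adjusted p = 6.4e-15).

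The chromogranins moved in opposite directions. Chgb had 5622 and 5066 CPM on ppx plates and 5292, 5813 and 5240 CPM on sham plates in somatostatin-only wells, against 1971 to 2681 CPM in insulin-only and 1159 to 1437 CPM in glucagon-only wells (1.13 ± 0.13, adjusted p = 1.3e-17, and 1.93 ± 0.16, adjusted p = 4.8e-31). Chga had 4609 and 4841 CPM on ppx plates and 4806, 4655 and 2795 CPM on sham plates, against 13722 to 20792 CPM in insulin-only and 6790 to 9387 CPM in glucagon-only wells (-2.08 ± 0.14, adjusted p = 7.2e-48, and -1.03 ± 0.16, adjusted p = 2.2e-09). For both genes no plate overlapped between classes. Cpe, the carboxypeptidase that trims processed hormones, was lower in both comparisons (-0.94 ± 0.13 and -1.09 ± 0.15). Scg2 (secretogranin 2) lay between the classes, at -0.81 ± 0.13 against insulin-only wells and 1.75 ± 0.16 against glucagon-only wells. Slc30a8, the zinc transporter of insulin granules, averaged 25.3 ± 15.9 CPM in somatostatin-only wells, against 967 ± 153 and 787 ± 112 CPM.

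**Figure D3:**
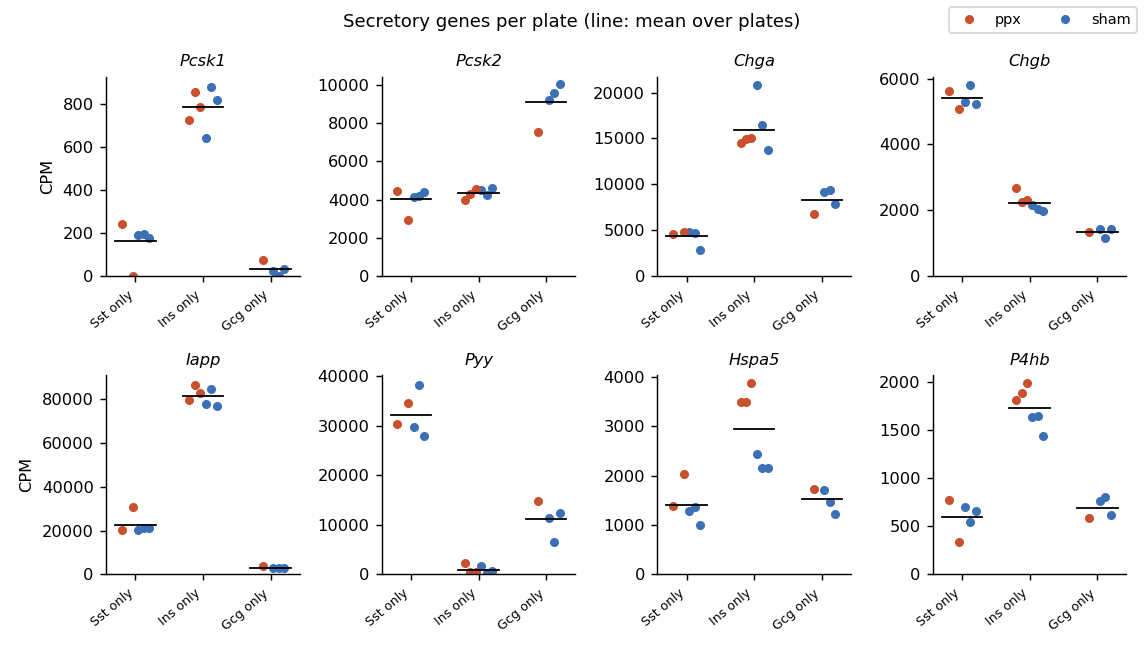
Levels (y axis, CPM, linear) of 8 secretory genes in somatostatin-only, insulin-only and glucagon-only wells, 1 point per plate with ppx in red left of sham in blue and a line at the mean. Chgb is highest in somatostatin-only wells, at a mean of 5407 CPM against 2231 and 1338 CPM, while Chga is lowest there, at 4341 CPM against 15929 and 8300 CPM.

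Of 17 tested genes of the exocytosis machinery, 3 were higher and 5 lower than in insulin-only wells, and 2 were higher and 1 lower than in glucagon-only wells, a share near the 14.3% of all genes called there. Of these 3, Rab27a lost its call in 10 of 17 alternatives and Cadps in 4 of 12. Rab3b, a small GTPase of secretory vesicles, was higher in both comparisons. It had 531 and 113 CPM on ppx plates and 536, 517 and 655 CPM on sham plates in somatostatin-only wells, against 69.9 to 173 CPM in insulin-only and 24.3 to 147 CPM in glucagon-only wells (2.40 ± 0.23, adjusted p = 2.6e-23, and 3.70 ± 0.38, adjusted p = 5.3e-20). Only ppx replicate 3, with 6 wells, fell into the range of the other classes. Sytl4, a granule-docking effector of Rab27a, averaged 28.4 ± 47.7 CPM against 274 ± 29.4 CPM in insulin-only wells (-4.11 ± 0.46, adjusted p = 1.9e-17), and Rims3 3.35 ± 7.49 CPM against 114 ± 46.7 CPM (-4.08 ± 0.65, adjusted p = 9.8e-09).

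Receptors were sparsely covered, with 7 of 29 listed genes tested: 2 were higher and 2 lower than in insulin-only wells, and 3 were higher and none lower than in glucagon-only wells. Ffar4, a receptor for long-chain fatty acids, had 79.4 and 0 CPM on ppx plates and 117, 24.6 and 87.3 CPM on sham plates in somatostatin-only wells, against 0 to 13.5 CPM in insulin-only wells (5.80 ± 0.85, adjusted p = 1.9e-10). Glucagon-only wells, at 24.8 to 73.4 CPM, did not differ past the threshold (0.44 ± 0.64). Ffar1, the related receptor of beta cells, went the other way, at 3.56 ± 5.41 CPM in somatostatin-only wells against 177 ± 50.5 CPM in insulin-only wells (-4.55 ± 0.59, adjusted p = 5.5e-13). Adra2a, the adrenergic receptor through which catecholamines restrain insulin release, lay between the classes, lower than in insulin-only wells (-1.76 ± 0.36, adjusted p = 1.0e-05) and higher than in glucagon-only wells (2.10 ± 0.70, adjusted p = 0.023). The second call was lost in 4 of 15 alternatives, among them without sham replicate 1 (1.93) or sham replicate 2 (1.70).

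The purinergic receptor gene P2ry1 was higher than in glucagon-only wells (3.99 ± 0.78). Crhr2, the receptor for urocortin 3, was too sparse to test: it had 13 UMIs in members, 2 in the larger pool of insulin-only wells and 0 in glucagon-only wells. Sstr3, a somatostatin receptor gene, was present in all 3 classes, at 191 ± 61.6 CPM in somatostatin-only, 209 ± 37.0 CPM in insulin-only and 155 ± 82.4 CPM in glucagon-only wells, and was not called (-0.43 ± 0.26 and -0.05 ± 0.33).

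Of 16 tested ion channel genes, 7 were higher and 1 lower than in insulin-only wells, and 4 were higher and 2 lower than in glucagon-only wells. Abcc8, the sulfonylurea receptor subunit of the ATP-sensitive potassium channel, had 1007 and 901 CPM on ppx plates and 1066, 1084 and 1004 CPM on sham plates in somatostatin-only wells. It had 431 to 724 CPM in insulin-only and 570 to 697 CPM in glucagon-only wells, without overlap, at log2 fold changes of 0.61 ± 0.15 (adjusted p = 0.00039) and 0.67 ± 0.19 (adjusted p = 0.0036). Kcnj11, the pore subunit of that channel, did not pass (0.71 ± 0.30 and 0.95 ± 0.39). Kcnk3, a leak potassium channel, and Dpp10 were higher than in insulin-only wells (3.89 ± 0.63 and 2.56 ± 0.57) but lower than in glucagon-only wells (-1.70 ± 0.50 and -1.94 ± 0.49). Trpm5, a cation channel of beta cells, had 2 UMIs in members (-4.73 ± 0.67 against insulin-only wells).

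Of 11 neuronal and cytoskeletal genes, 7 were higher and none lower (median 1.11), against 3 higher and 1 lower than in glucagon-only wells (median -0.11). Basp1, a growth cone protein, averaged 247 ± 84.2 CPM in somatostatin-only, 12.0 ± 15.7 CPM in insulin-only and 303 ± 87.8 CPM in glucagon-only wells, so it was called in the first comparison (5.37 ± 0.42) and not in the second (-0.25 ± 0.32). Nnat (neuronatin), an imprinted gene, was higher in both (2.85 ± 0.36 and 5.95 ± 0.78).

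Of 13 genes of cell adhesion and ephrin signalling, 8 were higher and 1 lower in each comparison (medians 1.21 and 1.54). Without sham replicate 1, 5 were called higher in each. Epcam, an epithelial adhesion molecule, had 507 and 1126 CPM on ppx plates and 441, 542 and 786 CPM on sham plates in somatostatin-only wells, against 135 to 204 CPM in insulin-only and 147 to 273 CPM in glucagon-only wells (1.64 ± 0.21, adjusted p = 2.1e-13, and 1.36 ± 0.27, adjusted p = 1.2e-05). All 5 plates lay above both ranges. Cadm1, a synaptic adhesion molecule, was higher than in insulin-only wells (4.02 ± 0.46) and was not called against glucagon-only wells (0.09 ± 0.42, adjusted p = 0.95). The connexin gene Gjd2, through which beta cells are electrically coupled, was lower than in insulin-only wells (-1.64 ± 0.36, adjusted p = 4.2e-05).

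The list of endoplasmic reticulum chaperones, which also holds stress-response genes such as Atf4 and Ddit3, differed from insulin-only wells as a group. Of 21 tested, 18 were lower and none higher, with a median log2 fold change of -1.25. Against glucagon-only wells 2 were lower and none higher, with a median of 0.01. Hspa5, the chaperone BiP, had 1392 and 2026 CPM on ppx plates and 1284, 1355 and 1004 CPM on sham plates in somatostatin-only wells, against 2152 to 3884 CPM in insulin-only wells (-1.15 ± 0.14, adjusted p = 5.4e-15) and 1212 to 1725 CPM in glucagon-only wells (-0.31 ± 0.17, adjusted p = 0.27). P4hb, a disulfide isomerase, and Atf4, a stress-response factor, were lower than in insulin-only wells (-1.49 ± 0.15 and -1.70 ± 0.19). Ero1lb, the oxidase of proinsulin folding, averaged 86.0 ± 70.8 CPM against 3177 ± 252 CPM (-5.08 ± 0.21). Atf4 and Ero1lb were the 2 genes lower than in glucagon-only wells (-0.80 ± 0.25 and -1.20 ± 0.34). For Atf4 that call was lost in 6 of 18 alternatives, among them without sham replicate 1 (-0.82) or 2 (-0.68). For Ero1lb it was lost in 6 of 17, among them without sham replicate 3 (-1.08).

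Immediate early and dissociation genes, which respond to tissue handling within minutes, were split by comparison. Of 17 tested, 9 were higher and 2 lower than in insulin-only wells (median 0.58), and 2 were higher and 10 lower than in glucagon-only wells (median -0.70). The heat shock genes Hspa1a and Hspa1b were higher in both, Hspa1a at 1050 and 1463 CPM on ppx plates and 994, 517 and 1092 CPM on sham plates, against 240 to 387 CPM in insulin-only and 113 to 249 CPM in glucagon-only wells (1.51 ± 0.17 and 2.18 ± 0.25). Egr1 was higher than in insulin-only wells (1.02 ± 0.13) and lower than in glucagon-only wells (-0.60 ± 0.15). Atf3 was lower than in glucagon-only wells, at 298 ± 301 against 1201 ± 97.4 CPM (-2.54 ± 0.23).

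Among 6 tested genes of arginine and amine metabolism, 1 was higher and 4 lower than in insulin-only wells, and 1 was higher and 2 lower than in glucagon-only wells. Ddc, the decarboxylase that makes dopamine and serotonin, was lower in both comparisons. It had 4 UMIs in members, at 4.78 ± 7.94 CPM, against 662 ± 49.5 CPM in insulin-only wells (-6.00 ± 0.40, adjusted p = 2.6e-49) and 218 ± 83.2 CPM in glucagon-only wells (-4.49 ± 0.54, adjusted p = 5.6e-15). Maob, a monoamine oxidase, was lower in both as well (-3.50 ± 0.45 and -2.27 ± 0.59), though the second call was lost on the tomato-positive plates alone (-2.37) and with no filter on low counts (-2.25). The glucose genes Slc2a2, a glucose transporter, and G6pc2, an islet glucose-6-phosphatase, were lower than in insulin-only wells (-4.39 ± 0.31 and -4.59 ± 0.19), and none of 9 in that list was called against glucagon-only wells, where 6 had positive values. Ttr, the thyroid hormone and retinol carrier transthyretin, was lower in both comparisons (-2.3 ± 0.17 and -5.77 ± 0.18).

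Of 10 tested mitochondrially encoded genes, 1 was higher and 5 lower than in insulin-only wells, and 2 were higher and 3 lower than in glucagon-only wells. The small ribosomal RNA mt-Rnr1 had 27878 and 29720 CPM on ppx plates and 23533, 23103 and 24499 CPM on sham plates in somatostatin-only wells, against 11449 to 18370 CPM in insulin-only and 8009 to 8497 CPM in glucagon-only wells (0.70 ± 0.13, adjusted p = 7.4e-07, and 1.44 ± 0.15, adjusted p = 8.1e-19). On the tomato-positive plates alone, the first of these calls was lost (0.34). The large ribosomal RNA mt-Rnr2 was not called against insulin-only wells (0.25 ± 0.13, adjusted p = 0.14) and was higher than in glucagon-only wells (0.93 ± 0.15, adjusted p = 3.8e-08). The genes called lower encode proteins, such as mt-Nd5 (-0.69 ± 0.14 and -0.55 ± 0.16), whose second call was lost in 6 of 18 alternatives. The median mitochondrial share of a member's UMIs lay between 9.47% and 13.8% over plates, against 7.86% to 10.8% in insulin-only and 5.10% to 7.14% in glucagon-only wells. The part of RNA quality in these values was not tested.

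**Figure D4:**
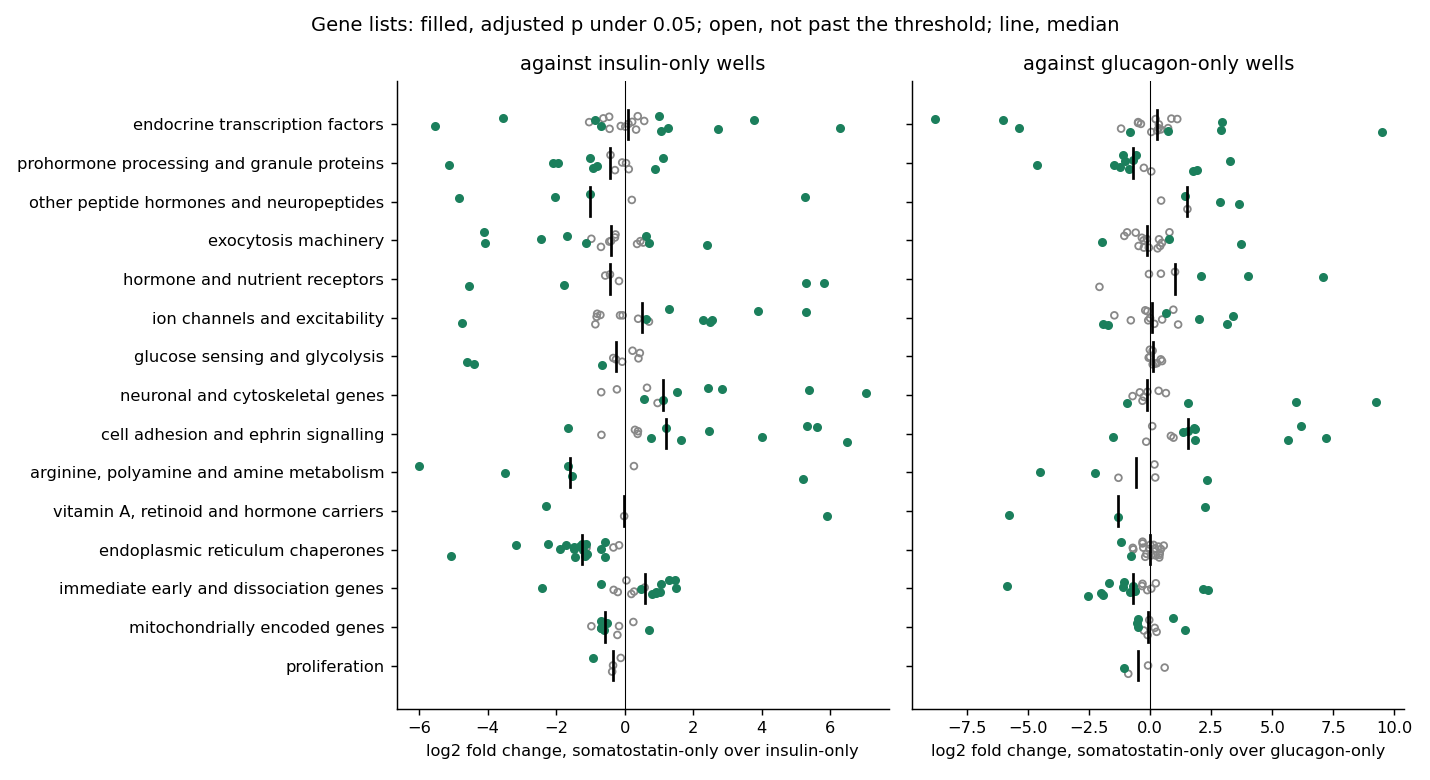
Log2 fold change of each tested gene in 15 lists (rows), somatostatin-only over insulin-only wells (left) and over glucagon-only wells (right); filled points passed an adjusted p of 0.05, open points did not, and the black bar is the list's median. The chaperone row lies left of 0 against insulin-only wells (18 of 21 called lower) and around 0 against glucagon-only wells; fitted values of genes at 0 in 1 class depend on the prior count.

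By size of change, the 12 highest genes over insulin-only wells included, besides the markers, Spock3, Mest, Olfm3, Mef2c and Fabp5. Mest, an imprinted gene, averaged 206 ± 83.5 CPM in somatostatin-only, 3.56 ± 8.25 CPM in insulin-only and 8.20 ± 11.7 CPM in glucagon-only wells. Fabp5, a fatty acid binding protein gene, had 91.6 and 113 CPM on ppx plates and 67.0, 148 and 175 CPM on sham plates, against 0 to 4.25 CPM in insulin-only wells and 0 UMIs in glucagon-only wells (at least 9.62-fold). The lowest included Prlr, the prolactin receptor of beta cells (-5.06 ± 0.35), and Tmem215, with 1 UMI in members (-6.87 ± 0.59). Against glucagon-only wells, Creb3l1, a membrane-bound transcription factor, was at least 16.5-fold higher, at 65 UMIs against 0, and was not called against insulin-only wells (-0.02 ± 0.30). Lower there were Lpl (lipoprotein lipase, -4.72 ± 0.34) and Pdk4 (-6.50 ± 0.88).

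Some genes known as markers of cells outside the endocrine islet were higher in members. Cela1, a pancreatic elastase, averaged 220 ± 126 CPM, against 19.4 ± 36.9 CPM in insulin-only and 6.19 ± 12.4 CPM in glucagon-only wells (4.59 ± 0.45 and 5.11 ± 0.86). Of 12 acinar markers, 9 had no UMI in members, Cpa1, Cpb1, Pnlip and Amy2a5 among them, and the 12 summed to 87.3 to 433 CPM over plates. Clu (clusterin), a duct marker, was higher as well (3.08 ± 0.16 and 2.98 ± 0.22). It was the only 1 of 4 tested duct markers called higher in either comparison. Spp1, another of them, was lower than in glucagon-only wells, a call lost in 7 of 15 alternatives. The duct markers Krt19, Muc1 and Cftr had no UMI. The 8 duct markers, Clu among them, summed to 1351 to 2402 CPM. Insulin-only wells had 367 to 862 CPM and glucagon-only wells 440 to 867 CPM. Sox9, whose promoter drives the Cre, had 13 UMIs in members, 2 in insulin-only and 0 in glucagon-only wells, too few to test. All 8 lymphocyte and 5 erythroid markers had no UMI in members, and the 7 macrophage markers summed to at most 175 CPM, against at most 115 CPM in insulin-only and 265 CPM in glucagon-only wells. Wells that held joined cells were not removed, and their part was not tested.

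Variation among the members was described by a variance-to-mean ratio, which grows with a gene's level at equal relative variation. Its ranking thus favours genes of high level. After thinning to 500 UMIs, the variance of counts between wells divided by their mean (the Fano factor, 1 for pure counting) averaged 4.94 for mt-Rnr2, 4.75 for Pyy and 2.80 for Iapp over the 3 plates with at least 30 members. It was 2.26 for mt-Rnr1, 2.2 for Gm26917, 2.02 for Rbp4, 1.95 for Gm42418 and 1.78 for Resp18. The median over 168 genes was 1.09, and 11 genes exceeded 1.5. Of these 8, Pyy, Iapp, Rbp4 and Resp18 encode secreted or granule proteins.

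The Sst share had no common relation to depth over the plates. Spearman's rho between a member's UMIs and its Sst share was -0.0837 on ppx replicate 1 (114 wells), and 0.193 and 0.463 on sham replicates 1 and 2 (127 and 30 wells). Between Ppy and Sst shares it was -0.179 on ppx replicate 1 and -0.187 and -0.331 on sham replicates 1 and 2. The wells of a plate share a library, and both shares have the well's total as divisor, which gives a negative tendency of its own. The deepest member, a well of ppx replicate 1 with 5784 UMIs, held 291 of the 8570 Iapp UMIs and 40 of the 41 Nupr1 UMIs of all members.

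Of the 3 class comparisons, that with wells on the other side of the Ppy limit gave the fewest calls. Of 3072 genes, 2 were higher (0.0651%) and 8 lower (0.26%) in somatostatin-only wells than in somatostatin wells with Ppy, where these entered from 5 plates (ppx replicates 1 to 3 and sham replicates 1 and 2). DESeq2 called 0 and 2, and 114 genes had an unadjusted p under 0.05 with edgeR. None of the 10 delta markers was called, and their log2 fold changes ran between -0.23 and 0.35. Hhex averaged 562 ± 259 CPM in somatostatin-only wells and 417 ± 75.7 CPM in those with Ppy, and Rbp4 5676 ± 1215 and 4967 ± 589 CPM.

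E130111B04Rik, annotated as an antisense transcript (GRCm38, chr11:102030268-102035084, minus strand), had 159 and 0 CPM on ppx replicates 1 and 3 and 100.5, 24.6 and 87.3 CPM on the sham plates in somatostatin-only wells. Wells with Ppy had 1168, 5498 and 6186 CPM on ppx replicates 1, 2 and 3 and 650 and 379 CPM on sham replicates 1 and 2, and no plate in the fit overlapped (-3.20 ± 0.24, edgeR adjusted p = 1.0e-38). The 2 members of ppx replicate 2, too few to enter, had 1671 CPM, within the range of the wells with Ppy. It lies 64846 bases from Ppy, the gene that divided the classes, and was called in 18 of 19 fits. The counting of strand is not stated, so reads of this transcript and of a gene on the opposite strand cannot be told apart. Pyy, the gene next to Ppy (chr11:102106676-102107832), was lower too (-0.52 ± 0.14, edgeR adjusted p = 0.0499), and was called in 3 of 19 fits.

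Fabp5 was higher in somatostatin-only wells: the 67.0 to 175 CPM given above stood against 16.5, 0 and 0 CPM on ppx replicates 1, 2 and 3 and 6.77 and 0 CPM on sham replicates 1 and 2 in wells with Ppy, 38 UMIs against 4 (3.19 ± 0.79, adjusted p = 0.031). The plates in the fit did not overlap, yet the call held in 7 of 19 fits and was lost without sham replicate 1 (3.21) or sham replicate 2 (2.88). The other gene called higher, Nupr1 (2.95 ± 0.59), had 40 of its 41 UMIs in the well of 5784 UMIs, and without ppx replicate 1 its value was -4.69.

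Other calls rested on few UMIs. Klf4, a factor of the immediate early list, had a log2 fold change of -3.56 ± 0.83 (2 UMIs against 25) and Ddc one of -2.60 ± 0.68 (4 against 25). Klf2 was at -2.04 ± 0.51 (13 against 50), the synaptic vesicle gene Sv2a at -1.72 ± 0.45 (15 against 49) and the metallothionein gene Mt2 at -1.32 ± 0.33 (32 against 78). They were called in 6, 3, 4, 4 and 4 of 19 fits. Ddc and Mt2 were each lower on 4 of 4 plates with both classes.

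Between operations, no gene was called in somatostatin-only wells. Of 625 genes tested on ppx replicates 1 and 3 against sham replicates 1 to 3, 0 passed (0.0%) with edgeR and 0 with DESeq2, and 26 had an unadjusted p under 0.05 with edgeR. Plates did not overlap for 57 genes higher (9.12%) and 71 lower (11.4%) after ppx. The ppx side rests on 114 wells of 1 tomato-positive plate and 6 wells of 1 tomato-negative plate. The 2 members of ppx replicate 2 did not enter. Ghrl was left out of the test as run by the filter on low counts. Without sham replicate 3 it was called higher after ppx (1.74, edgeR adjusted p = 0.039). Without ppx replicate 3, which leaves 1 ppx plate, its value was 2.19. The UMIs of Ghrl lay on the tomato-positive plate of each operation.

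No delta marker was called: the log2 fold changes of 8 tested ran from -0.68 to 0.21, with 1 at an unadjusted p under 0.05. That gene was Rbp4 (-0.39 ± 0.19, unadjusted p = 0.048, edgeR adjusted p = 0.995), whose 5042 and 4278 CPM on ppx plates lay below the 5398 to 7463 CPM on sham plates. Pyy was at 0.00 ± 0.12 and Chgb at 0.00 ± 0.18. Iapp had 20248 and 30845 CPM on ppx plates and 20011, 21232 and 21136 CPM on sham plates (0.26 ± 0.13, edgeR unadjusted p = 0.052, adjusted p = 0.995), so only the 6 wells of ppx replicate 3 stood apart.

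The 3 genes with the smallest p were mt-Rnr2, Gm26917 and Atf3. The mitochondrial ribosomal RNA mt-Rnr2 had 93212 and 101205 CPM on ppx plates and 77978, 81823 and 74676 CPM on sham plates (0.30 ± 0.08, edgeR unadjusted p = 0.00044, adjusted p = 0.27). Without ppx replicate 1, its fitted value was -0.043, although the ppx plate left, at 101205 CPM, lay above every sham plate. The fit rescales the plates, and the part of this was not tested. Gm26917, a predicted noncoding RNA, had 15346 and 14522 CPM on ppx plates and 7284, 12463 and 12926 CPM on sham plates (0.49 ± 0.17, edgeR unadjusted p = 0.0055, adjusted p = 0.995). Atf3, a stress-induced factor of the immediate early list, had 348 and 788 CPM on ppx plates and 234, 73.9 and 43.7 CPM on sham plates (1.28 ± 0.46, edgeR unadjusted p = 0.0080, adjusted p = 0.995). All 3 were higher without overlap and past no threshold.

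As lists, 11 of 12 immediate early and dissociation genes and 8 of 8 mitochondrially encoded genes had positive values, with medians of 0.37 and 0.16 against -0.01 over all 625 genes. None of their members was called. The median mitochondrial share of a member's UMIs was 13.8% and 11.7% on ppx replicates 1 and 3, and 11.6%, 10.5% and 11.2% on sham replicates 1, 2 and 3. The part of tissue handling or RNA quality in these values was not tested.

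**Figure D5:**
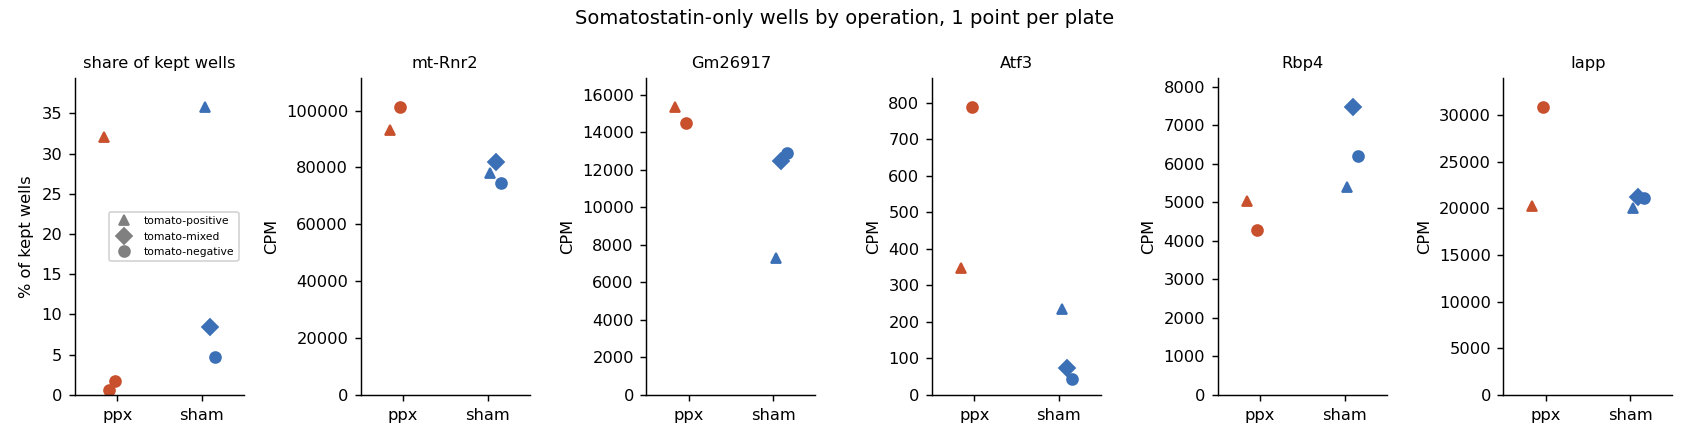
Share of kept wells that were somatostatin-only (left panel, percent) and levels of 5 genes in them (other panels, CPM), 1 point per plate, ppx left of sham, with the shape giving the tomato sort. The tomato-positive plates hold the high shares in both operations, and the ppx and sham plates of mt-Rnr2, Gm26917, Atf3 and Rbp4 do not overlap while none of these genes passed the adjusted threshold.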

How the data were processed

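Single-cell RNA was counted by MARS-seq, a plate-based 3′ method with UMIs. The authors deposited, for each plate of 384 wells, a table of UMI counts per gene (52542 gene rows). HISAT 0.1.6 and the mm10 genome are named per the submitters' processing notes, and the counting of strand is not given in the sources used here. Of 2304 wells, 96 held under 500 UMIs and 93 exceeded 20% mitochondrial UMIs. These were left out, as were spike-in rows, and doublets were not removed. Counts of each class were added up per plate (at least 5 wells), without the 5 hormone genes. They were tested with edgeR 4.0.16 in R 4.3.3 (TMM scaling, filterByExpr, quasi-likelihood test, Benjamini-Hochberg adjustment), with 4 classes in 1 fit and plate as a block, and without covariates for ppx against sham. The test draws on the spread of other genes. DESeq2 1.42.0, thinning to 500 or 1000 UMIs, other filters and left-out plates were alternatives. Well shares were compared by exact permutation in Python 3.11.15. The members and gene lists were chosen with earlier results of these data known. Genes were named by rule: up to 12 called per class comparison and direction by size with 1 sign on every plate, up to 4 called per list by size, the 3 with smallest p for ppx against sham, the 8 with the highest Fano factor, and a fixed set of hormones and markers. Other genes named were chosen after their values were seen. Results for some genes are not reported here.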

Additional observations from a re-analysis of the deposited data

Results flagged for a closer look

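Among 22 series of plate values, 5 had 1 plate far from the other 4 by Dixon's test. By chance that test marks about 1 in 20 groups. The series were gene levels in somatostatin-only wells, and differences of those wells from insulin-only wells in UMIs and genes per well. All those flagged were gene levels. On ppx replicate 3, which rests on 6 wells, Hhex stood at 1013 CPM and Iapp at 30845 CPM, above the other plates, while Pcsk1 at 0 CPM and Pcsk2 at 2927 CPM stood below them. On ppx replicate 1, Nupr1 stood at 250.3 CPM, with 40 of 41 UMIs in a single well.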

How the results depend on the processing

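Against insulin-only wells, 771 genes were called. Thinning to 500 and 1000 UMIs left 159 and 290, tomato-positive plates alone gave 509 (58.0% of them higher, against 44.5% over all plates), and leaving out 1 plate gave 540 to 827. Against glucagon-only wells, 439 were called, with 266 under no filter on low counts, 101 and 167 after thinning, 153 on tomato-positive plates, 205 with only the 2 classes fitted, and 303 to 484 with 1 plate left out. Against somatostatin wells with Ppy, 10 were called, with 2 by DESeq2, 3 with no filter, 0 and 1 after thinning, 3 with at least 10 wells per plate, 5 with Sst at 2% or more, 3 without very deep wells, 3 on tomato-positive plates, 1 with only the 2 classes and 3 to 7 with 1 plate left out. Nupr1 turned to -4.69 without ppx replicate 1, in a range up to 3.61 with 1 plate left out.

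Between operations, 0 genes were called, with 1 under no filter (Nupr1). Leaving out sham replicate 1, 2 or 3 gave 0, 1 (8430408G22Rik) and 2 (Ghrl and Glb1l). Leaving out ppx replicate 1 or 3 left 1 ppx plate, so calls there are not counted. The setting of at least 10 wells per plate was the same fit as that without ppx replicate 3. There the fitted value of mt-Rnr2 turned to -0.043 without ppx replicate 1, though its CPM did not turn, in a range up to 0.42. The difference in the share of wells ran from -15.2 to 4.82 points with 1 plate left out (4.82 without sham replicate 1, 0.537 without ppx replicate 2). Between somatostatin-only and insulin-only wells, the difference in genes per well at equal depth was 1.47 by the mean in place of the median. It was -5.88 to 1.88 with 1 plate left out (1.12 without ppx replicate 1, 1.88 without ppx replicate 3). The causes were not tested.

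Deviations of same-numbered plates correlated little, at 0.0498 and 0.0522 over 625 genes for replicates 1 and 3. With 2 ppx plates these values are not independent, and replicate 2 was not examined. They therefore cannot decide whether replicate numbers pair the plates. With the replicate block, 0 genes were called between operations. Without the plate block, 1050 genes were called against insulin-only wells, 488 against glucagon-only wells and 4 against somatostatin wells with Ppy. For single named genes against insulin-only wells, 1213 values kept their side of the threshold, 22 lost a call and 10 gained one. Against glucagon-only wells 1036 kept it, 83 lost a call and 1 gained one, and against somatostatin wells with Ppy 67 kept it and 82 lost a call. Members yielded a median of 1539 UMIs, which limits what can be seen of sparse genes such as receptors, and ppx rests on 2 plates.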
